A study of Homo sapiens with 6 samples.

Results

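Polyamines are small, positively charged molecules that bind nucleic acids and are needed for growth and translation, and proliferating T cells keep their synthesis high. Ornithine decarboxylase (ODC1) makes putrescine, and spermidine synthase (SRM) and spermine synthase (SMS) lengthen it with aminopropyl groups whose donor is made by S-adenosylmethionine decarboxylase (AMD1). Antizymes (OAZ1, OAZ2) bind ODC1 and send it to the proteasome, the antizyme inhibitor (AZIN1) relieves that block, and SAT1 acetylates spermidine and spermine so that they are broken down or exported. SAT2 is a paralogue of SAT1, and SMOX oxidises spermine back to spermidine. These 10 genes were taken by symbol from 60856 features of the deposited tables, and each symbol matched 1 Ensembl identifier. They were chosen by their place in the pathway and from the counts of these same libraries, in which SAT1 was known to be lower with BPAF. All 10 passed the filter on low counts, which kept 15490 features for testing.

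The libraries are mRNA-seq of Jurkat, an established human leukemic T-cell line, labelled wild type. There were 3 libraries from cells exposed to 1 µM BPAF (bisphenol AF, in which fluorine replaces hydrogen in the methyl groups of bisphenol A), and 3 from cells exposed to 0.1% dimethyl sulfoxide (DMSO), the vehicle. The treatment labels and the design text give the exposure as 12 h and the treatment protocol as 24 h, and the design text describes the libraries of a group as biological replicates. All libraries come from a single line, and in such bulk samples fewer expressing cells and less RNA per cell cannot be told apart.

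Library totals were 20253656 to 22617613 counts in BPAF and 20745097 to 22117976 in DMSO. Features with a count above 0 numbered 23539 ± 196 in BPAF and 22861 ± 208 in DMSO (SD, n = 3). Every BPAF library was above every DMSO library in this number. The two-sided exact permutation p was 0.1, the smallest that 3 against 3 libraries can give. Whether this difference contributed to any result on the polyamine genes was not tested. All 11 T-cell and Jurkat markers listed, CD3D, CD3E and LCK among them, averaged at least 1 TPM, and their summed level was 3320 to 3398 TPM in BPAF and 3183 to 3332 in DMSO. Of the marker lists for other cells, epithelial genes were at or near 0, with EPCAM, KRT14, KRT19 and CDH1 at 0 in every library. The erythroid list summed to 92.9 to 128.2 TPM in BPAF and 113.0 to 119.1 in DMSO, from the globin genes HBB, HBA1 and HBA2, and the B-cell list to 19.6 to 22.8 TPM in BPAF and 21.1 to 24.6 in DMSO, nearly all from CD79A. The monocyte and fibroblast lists each stayed under 2 TPM in every library. No gene of these marker lists passed the test described below.

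Antizyme output depends on a recoding step that counts per gene do not measure, so its site is shown first. Ribosomes reading OAZ1 or OAZ2 must slip by a base at a UGA stop codon to make full-length antizyme, and polyamines favour the slip. GENCODE release 29 records the step as a reading frame that leaves out the T of this stop codon, at position 2271443 of chromosome 19 for OAZ1 and position 64691515 of chromosome 15 for OAZ2 (GRCh38). The coding sequence around it follows for both genes, 61 bases each, with the codon before the slip and the stop codon, TCCTGA, in capitals; the windows are chr19:2271413-2271473 on the plus strand and chr15:64691485-64691545 on the minus strand.
OAZ1 recoding site: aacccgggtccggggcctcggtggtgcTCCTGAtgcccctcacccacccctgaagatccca
OAZ2 recoding site: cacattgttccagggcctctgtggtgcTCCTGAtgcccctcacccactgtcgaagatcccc
Of the 61 positions, 49 were identical (80.3%). The deposited values hold 1 number per gene and library, so slipped and unslipped products are not separated in anything that follows.

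The level of each transcript per unit of length was read from TPM, a deposited measure scaled by transcript length and library size. OAZ1 was by far the most abundant of the 10, at 988 ± 2.31 TPM in BPAF and 973 ± 34.5 TPM in DMSO (SD, n = 3), and made up 55.3% to 55.7% of their summed TPM in BPAF and 55.1% to 56.2% in DMSO. ODC1 followed at 238 ± 2.60 TPM in BPAF and 241 ± 5.12 in DMSO, and SRM at 199 ± 1.07 TPM in BPAF and 188 ± 9.0 TPM in DMSO. AMD1 (94.7 ± 3.84 TPM in BPAF and 91.3 ± 2.98 in DMSO) and SMS (95.7 ± 5.29 TPM in BPAF and 94.2 ± 0.791 in DMSO) came next and did not differ from each other beyond their spread. The regulators AZIN1 (72.8 ± 1.53 TPM in BPAF and 67.6 ± 2.64 in DMSO) and OAZ2 (65.7 ± 1.86 TPM in BPAF and 64.0 ± 3.42 in DMSO) overlapped each other across the 6 libraries. Within each library AZIN1 was the higher. Transcripts for breakdown lay well under those for synthesis. SMOX averaged 9.91 ± 0.473 TPM in BPAF and 12.2 ± 1.18 in DMSO, SAT1 8.97 ± 0.254 TPM in BPAF and 12.5 ± 1.89 in DMSO, and SAT2 6.2 ± 0.533 TPM in BPAF and 5.89 ± 0.318 in DMSO. SAT1 and SMOX overlapped over the 6 libraries, and SAT2 was lower than both in each library. The 3 breakdown genes summed to 24.7 to 25.3 TPM in BPAF and 28.6 to 32.2 TPM in DMSO. This sum is a description, because SAT1 was known to be lower when the genes were chosen. SMOX overlapped between the groups in counts scaled to library size, and SAT2 overlapped on both scales. The 4 synthesis genes summed to 621 to 633 TPM in BPAF and 606 to 629 in DMSO.

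**Figure D1:**
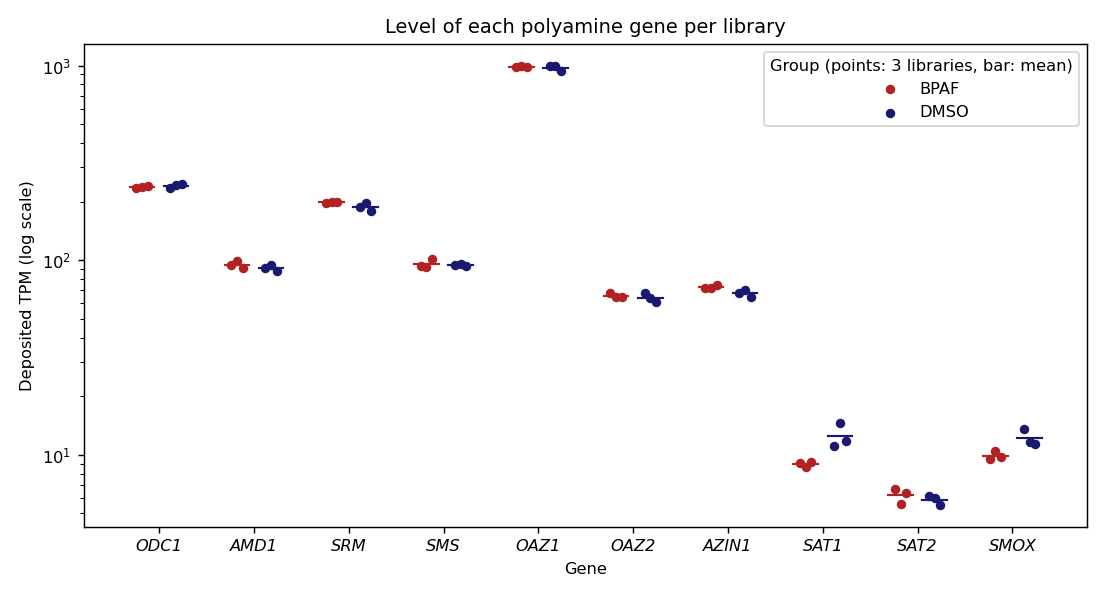
Deposited TPM (log axis) of the 10 polyamine genes in the 3 BPAF libraries (left of each pair) and the 3 DMSO libraries (right), with bars at group means. OAZ1 stands between 933 and 995 TPM and the breakdown genes SAT1, SAT2 and SMOX between 5.53 and 14.6 TPM; SAT1 and SMOX are lower in every BPAF library than in any DMSO library on this scale.

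The question for these genes was whether 1 µM BPAF was accompanied by a shift between making and breaking down polyamines. The fit covered all 15490 features with edgeR's quasi-likelihood test on counts scaled by TMM, a factor per library that makes most genes comparable, and p-values were adjusted over all of them (Benjamini-Hochberg, threshold 0.05). SAT1 and ODC1 were lower in BPAF, with fitted changes of -28.4% and -7.28%, and the other 8 genes did not pass. Thus 2 of the 10 were called lower and 0 higher, where 3.4% of all tested features were called lower, 2.65% higher and 6.06% in either direction. Nothing is read from that count, because the pathway was put together with the lower SAT1 of these libraries already known, so its members' differences are a description. The median log2 fold change of the 10 was -0.05, beside 0.0019 for all tested features.

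SAT1 (ENSG00000130066, GRCh38 chromosome X, 23783173 to 23786226, plus strand), the acetyltransferase that opens the breakdown of spermidine and spermine, had 140, 125 and 138 counts in BPAF and 169, 198 and 178 in DMSO. Scaled to library size with TMM (CPM) these were 6.47, 6.13 and 6.01 in BPAF and 7.73, 9.63 and 8.67 in DMSO. Every BPAF library lay below every DMSO library, with DMSO replicate 2 the highest and DMSO replicate 1 the nearest to BPAF. The fitted log2 fold change was -0.48 ± 0.12 (SE), that is -28.4%, with a 95% interval from -40.2% to -14.4%. At a mean of 158 counts per library, counting error alone gives a coefficient of variation of 7.96%, and the observed value was 3.88% in BPAF and 10.9% in DMSO. Among the 527 features called lower, 15 had a log2 fold change as low as that of SAT1 or lower, SAT1 included. SAT1 was chosen with its lower level known, so nothing is read from that count. The call was lost without BPAF replicate 1, 2 or 3 or DMSO replicate 2 or 3, with edgeR adjusted p from 0.0616 to 0.0990, while the log2 fold change was between -0.51 and -0.41. It was kept without DMSO replicate 1 (log2 fold change -0.56, edgeR adjusted p = 0.0329).

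The sequence before the annotated start of SAT1 is shown because this gene had the largest difference of the 10. These are the 250 bases upstream in RefSeq's table (GRCh38.p14, chrX:23782923-23783172, plus strand), with the letters CCAAT, or ATTGG for the other strand, in capitals.
SAT1 promoter: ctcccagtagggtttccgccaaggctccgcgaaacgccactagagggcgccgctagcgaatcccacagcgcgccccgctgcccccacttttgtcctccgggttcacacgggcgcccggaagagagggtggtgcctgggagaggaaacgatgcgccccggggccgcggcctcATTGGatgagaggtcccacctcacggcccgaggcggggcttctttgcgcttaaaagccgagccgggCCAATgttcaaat
CCAAT was found 2 times in it, and 34.6% of the 35116 promoter windows of 300 bases hold it on either strand. On both strands of its 300-base window the letters TATAAA, held by 11.5% of all windows, were not found. Neither was GGGCGG, which 45.0% of windows hold, nor the E-box described below for ODC1. A match or its absence describes these letters only.

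ODC1 (ENSG00000115758, chromosome 2, 10439968 to 10448504, minus strand), whose product makes putrescine, was at 368.3, 377.8 and 372.5 CPM in BPAF and 391.9, 392.5 and 422.2 CPM in DMSO. The groups did not overlap, and DMSO replicate 3 was the highest library. The log2 fold change was -0.11 ± 0.03 (SE; -7.28%, 95% interval from -11.4% to -2.99%; edgeR adjusted p = 0.0431). In TPM the same libraries overlapped, with 235, 239 and 241 in BPAF and 236, 243 and 246 in DMSO, and the log2 difference of log2(TPM + 1) was -0.02, beside a median of 0.08 for all tested features on that scale and 0.0019 in the edgeR fit. The call was lost without BPAF replicate 1, 2 or 3 or DMSO replicate 1 or 3 (edgeR adjusted p from 0.0610 to 0.200) and kept without DMSO replicate 2 (0.0336).

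ODC1 is a textbook target of MYC, which binds the letters CACGTG (the E-box), so the members were searched for them. Of the 8 members with an entry in the promoter table, ODC1 and SRM held it in at least 1 window. These 8 members have 12 windows. Of all windows 7.26% hold it, a share per window that is not comparable with a count of genes. AZIN1 and SMOX had no entry. Of the 2 ODC1 windows in the table, the one at the downstream start held the E-boxes and the one at the upstream start held none. Each match is shown with 12 bases on either side and the E-box in capitals, on the minus strand of GRCh38.p14, at chr2:10448024-10448053, chr2:10447990-10448019 and chr1:11060200-11060229.
ODC1 E-box, upstream of that start: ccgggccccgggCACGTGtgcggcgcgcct
ODC1 E-box, just after that start: ggcctgcggagaCACGTGgtcgccgagcgg
SRM E-box: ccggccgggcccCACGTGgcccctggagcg
MYC itself was at 458, 478 and 463 CPM in BPAF and 471, 512 and 502 CPM in DMSO. The groups overlapped, and MYC did not pass (log2 fold change -0.09 ± 0.03, edgeR adjusted p = 0.120). SRM (ENSG00000116649, chromosome 1, 11054584 to 11060024), which makes spermidine, was at 136, 139 and 136 CPM in BPAF and 136, 138 and 132 in DMSO. Its log2 fold change was 0.02 ± 0.03, with a 95% interval from -3.64% to 6.06% (edgeR adjusted p = 0.855). It was below 0 without DMSO replicate 3 (-0.0030) and once exon length and GC content were modelled (-0.07). The median of all features tested in the latter fit was -0.03.

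The other synthesis enzymes also did not pass. AMD1 (ENSG00000123505, chromosome 6, 110874770 to 110895713), the source of aminopropyl groups, was at 214, 212 and 206 CPM in BPAF and 216, 221 and 217 CPM in DMSO. The CPM values did not overlap although the difference was small (log2 fold change -0.05 ± 0.03, 95% interval from -7.49% to 0.668%, edgeR adjusted p = 0.350). Some counts of AMD1, OAZ1 and OAZ2 were fractional. Where the decimals came from was not stated, so how reads were assigned to these genes is not known. AMD1P3, a processed pseudogene of AMD1, held 3.06 counts per library on average. The genes annotated as overlapping members averaged at most 10.9 counts per library, the highest being MAILR on the opposite strand of AZIN1. SMS (ENSG00000102172, chromosome X, 21940573 to 21994835), which makes spermine, was at 95.4, 95.8 and 102.2 CPM in BPAF and 101.8, 100.8 and 102.5 CPM in DMSO, and its groups overlapped through BPAF replicate 3. Its log2 fold change was -0.06 ± 0.04 (95% interval from -8.97% to 1.71%, edgeR adjusted p = 0.467). Without BPAF replicate 3 it was -0.09 (edgeR adjusted p = 0.267). With exon length and GC content modelled it was -0.11 (edgeR adjusted p = 0.0663), beside a median of -0.03 for all features in that fit. On the log2(TPM + 1) scale the values were 0.05 for AMD1 and 0.02 for SMS, both below the median of 0.08 for all tested features.

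Among the regulators, OAZ1 (ENSG00000104904, chromosome 19, 2269509 to 2273490) was at 399, 406 and 393 CPM in BPAF and 421, 410 and 409.5 CPM in DMSO. The groups did not overlap, and the gap was small: the log2 fold change was -0.05 ± 0.03, with a 95% interval from -7.29% to 0.473% (edgeR adjusted p = 0.323). OAZ2 (ENSG00000180304, chromosome 15, 64687573 to 64703281) was at 58.4, 55.9 and 59.2 CPM in BPAF and 63.5, 61.3 and 59.4 CPM in DMSO, again just separate (log2 fold change -0.09 ± 0.05, edgeR adjusted p = 0.309). AZIN1 (ENSG00000155096, chromosome 8, 102826357 to 102893864) had overlapping groups, at 179, 184 and 184 CPM in BPAF and 183, 188 and 178 CPM in DMSO. Its log2 fold change of -0.0077 had a 95% interval from -4.95% to 4.10% (edgeR adjusted p = 0.938). In log2(TPM + 1) the differences of OAZ1, OAZ2 and AZIN1 were 0.02, 0.04 and 0.11, beside a median of 0.08 for all tested features, so OAZ1 and OAZ2 lay below that median and AZIN1 above it. With exon length and GC content modelled, OAZ2 was at -0.14, beside a median of -0.03 for all features, and still did not pass (edgeR adjusted p = 0.0606). In all, CPM groups did not overlap for 5 of the 10 genes (SAT1, ODC1, AMD1, OAZ1 and OAZ2), where 24.8% of tested features did so.

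**Figure D2:**
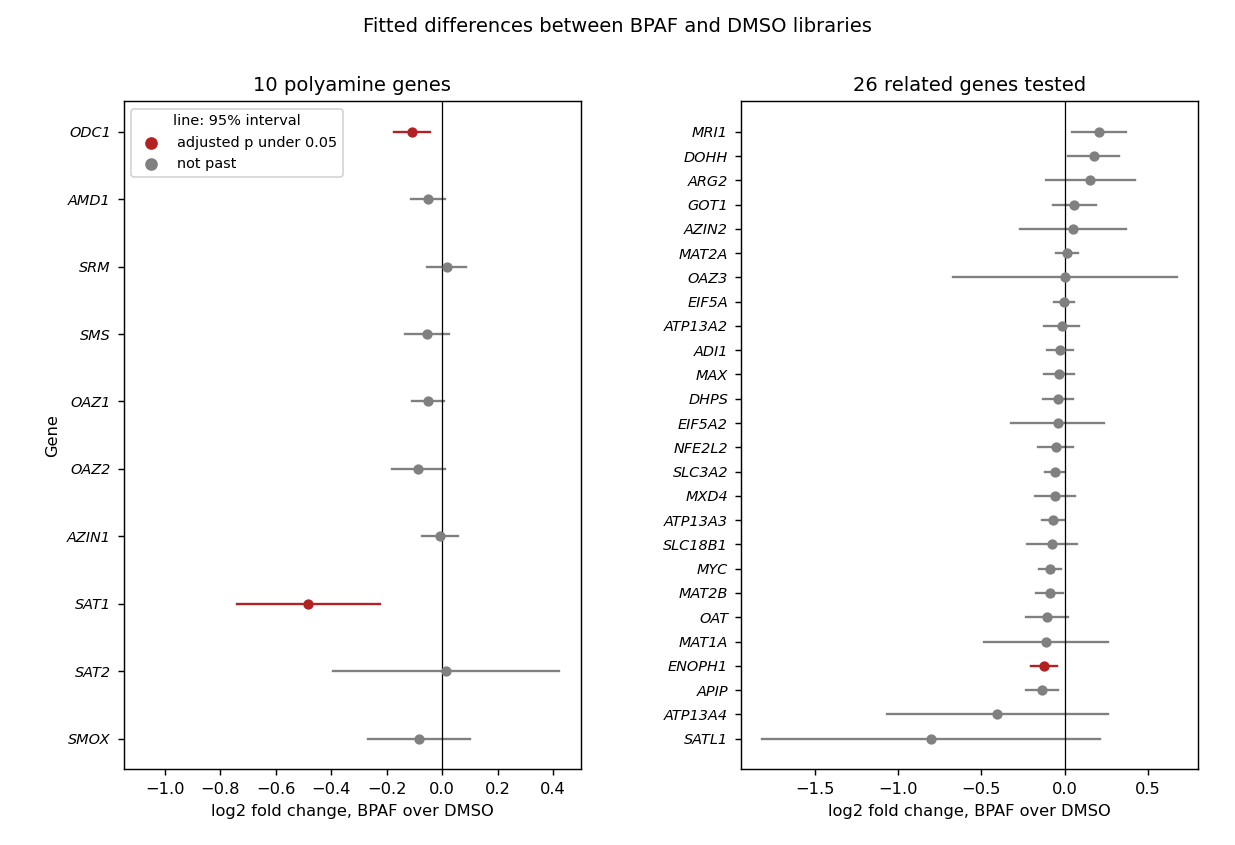
Log2 fold change of BPAF over DMSO (points) with 95% intervals (lines) from the edgeR fit, for the 10 polyamine genes (left) and the 26 tested related genes (right); red marks an adjusted p under 0.05. SAT1, known to be lower when the genes were chosen, is at -0.48, and the synthesis and antizyme genes lie between -0.11 and 0.02. The intervals of SAT2 and SMOX overlap that of SAT1, and differences between genes were not tested.

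The other breakdown genes did not pass, and their difference from SAT1 was not tested. SAT2 (ENSG00000141504, chromosome 17, 7626234 to 7627876) had 56, 53 and 65 counts in BPAF and 61, 53 and 53 in DMSO, so its groups overlapped. At this depth its log2 fold change, 0.01 ± 0.20, had a 95% interval from -23.9% to 33.8%, which includes no difference and overlaps the interval of SAT1 (edgeR adjusted p = 0.985). SMOX (ENSG00000088826, chromosome 20, 4120980 to 4187747) had 281, 287 and 294 counts in BPAF and 324, 291 and 272 in DMSO. At 13.3 ± 0.683 CPM in BPAF and 14.1 ± 0.789 in DMSO, the groups overlapped (log2 fold change -0.08 ± 0.09, 95% interval from -17.0% to 7.09%, edgeR adjusted p = 0.664). This interval also overlaps that of SAT1. Without DMSO replicate 1 the value was -0.05, and it was -0.13 without BPAF replicate 2 or DMSO replicate 3.

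SMOX was the member whose picture changed most with the unit. In TPM it was at 9.54, 10.4 and 9.74 in BPAF and 13.5, 11.6 and 11.3 in DMSO, with every BPAF library below every DMSO library. On the log2(TPM + 1) scale the difference was -0.27 and did not pass in limma (adjusted p = 0.229). The number of counts behind 1 TPM, set relative to the median feature of the same library, was 0.895, 0.871 and 0.872 in BPAF and 0.680, 0.768 and 0.702 in DMSO. This quantity grows with the transcript length that the authors' TPM assumed for a gene, and how that length was set was not stated in the labels. Its log2 difference for SMOX, 0.30, was larger in size than those of 94.4% of 15414 features, and its groups did not overlap, as for 18.2% of those features (12.9% with higher values in BPAF). The other 9 members had log2 differences of this quantity between -0.04 and 0.08; that of SAT1 was 0.08, with overlapping groups. TPM groups did not overlap for SAT1, SMOX, SRM and AZIN1, where 24.5% of tested features did so.

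**Figure D3:**
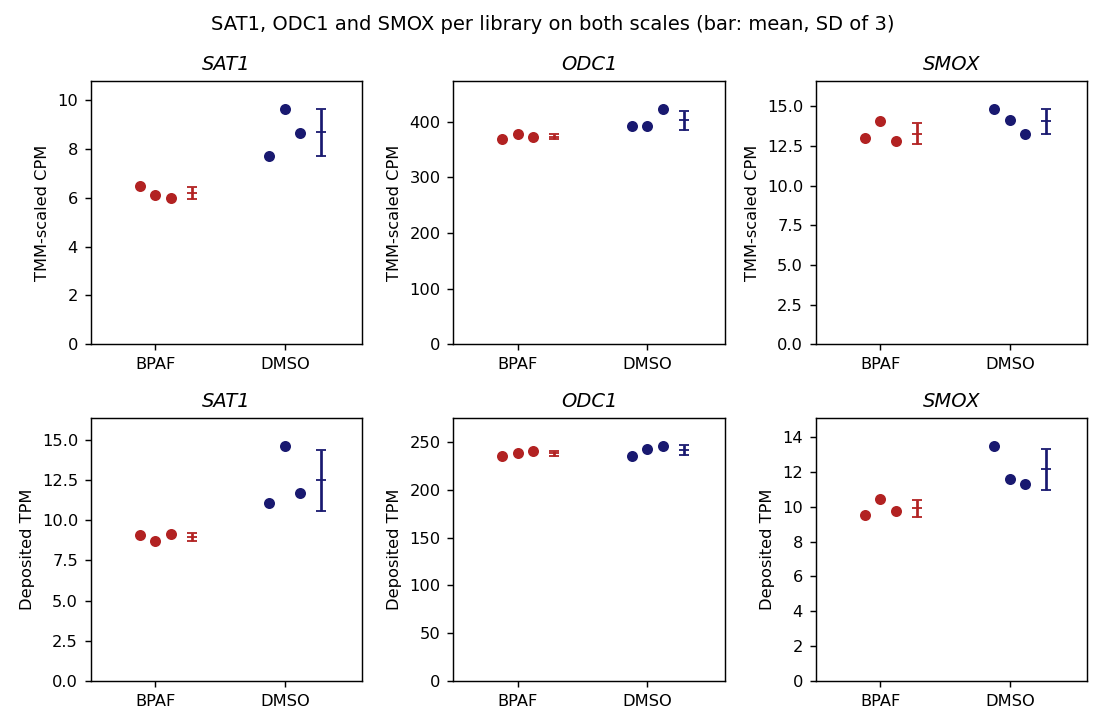
TMM-scaled CPM (top) and deposited TPM (bottom) of SAT1, ODC1 and SMOX in the 3 BPAF and 3 DMSO libraries, with the mean and SD beside the points; axes start at 0. SAT1 is lower in BPAF on both scales, ODC1 is separate in CPM and overlaps in TPM, and SMOX overlaps in CPM and is separate in TPM.

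Ratios of TPM within a library cancel its depth and are given as a description. ODC1 stood at 25.8, 27.5 and 26.3 times SAT1 in BPAF and at 21.3, 16.6 and 21.0 times SAT1 in DMSO. OAZ1 stood at 13.8, 13.7 and 13.2 times AZIN1 in BPAF and 14.6, 14.2 and 14.4 times in DMSO. Neither ratio overlapped between the groups, and how often ratios of other gene pairs separate was not computed. ODC1 by itself overlapped in TPM, while SAT1 did not and was known to be lower when the genes were chosen. SMS to SRM was 0.470, 0.463 and 0.509 in BPAF and 0.503, 0.483 and 0.523 in DMSO, and overlapped. The acetyltransferase pair, SAT1 to SAT2, was at 1.37, 1.55 and 1.44 in BPAF and 1.81, 2.44 and 2.12 in DMSO.

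Genes that feed, use or move polyamines were listed from general knowledge: 32 genes, of which 26 were tested, 1 fell and 0 rose, where 3.4% of all tested features fell and 2.65% rose. Their median log2 fold change was -0.05. In the salvage of methylthioadenosine, the by-product of SRM and SMS, ENOPH1, a phosphatase of that route, fell to 101.7, 105.0 and 101.0 CPM in BPAF, against 112.3, 108.5 and 114.7 CPM in DMSO (log2 fold change -0.13 ± 0.04, edgeR adjusted p = 0.0469). That call was lost without BPAF replicate 1, 2 or 3 or DMSO replicate 1 or 3 (edgeR adjusted p up to 0.177). APIP, the dehydratase of the route, was at 53.2 ± 1.36 CPM in BPAF and 58.5 ± 1.15 in DMSO (log2 fold change -0.135 ± 0.05, edgeR adjusted p = 0.0879), and MRI1, its isomerase, at 21.7 ± 1.83 CPM in BPAF and 18.8 ± 0.735 in DMSO (log2 fold change 0.20 ± 0.08, edgeR adjusted p = 0.133). MAT2B, a regulatory subunit of the enzyme that makes S-adenosylmethionine, was at 87.9 ± 2.61 CPM in BPAF and 93.6 ± 2.16 in DMSO and did not pass (edgeR adjusted p = 0.190).

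MTAP, the phosphorylase that opens this salvage route, was singled out after its values were seen. It had 1, 2 and 5 counts in BPAF and 1, 0 and 2 in DMSO, too few to test, while the later steps MRI1, APIP, ENOPH1 and ADI1 averaged 10.4, 77.7, 83.8 and 61.7 TPM over the 6 libraries. PAOX, which oxidises acetylated polyamines, had 1, 0 and 1.06 counts in BPAF and 2, 0 and 1 in DMSO and was not tested either.

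Spermidine also supplies the hypusine residue of the translation factor EIF5A. EIF5A was at 819 ± 20.1 CPM in BPAF and 823 ± 16.4 in DMSO (log2 fold change -0.0068 ± 0.03, edgeR adjusted p = 0.939), some of it in fractional counts. DHPS, which transfers the spermidine part, was at 85.7 ± 2.37 CPM in BPAF and 88.1 ± 3.95 in DMSO (edgeR adjusted p = 0.669). DOHH, which completes hypusine, was at 42.0 ± 2.20 CPM in BPAF and 37.2 ± 4.25 in DMSO (log2 fold change 0.17 ± 0.07, edgeR adjusted p = 0.181) and depended on single libraries: without DMSO replicate 3 it was 0.25 and passed (edgeR adjusted p = 0.0405), and without DMSO replicate 2 it was 0.09 (0.510). With exon length and GC content modelled it was 0.06 (edgeR adjusted p = 0.658), beside a median of -0.03 for all features in that fit. Of the 5 transport genes tested, among them ATP13A2 and ATP13A3, which carry polyamines across membranes, none passed in edgeR, DESeq2 or limma-voom, and 1 had an unadjusted edgeR p under 0.05.

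The genes whose profile over the 6 libraries was nearest to that of SAT1 were found by the root mean square distance between log2 CPM values centred on each gene's mean, among 11804 genes that have a symbol and a mean log2 CPM not under 1. The 5 nearest were ITPKA (distance 0.0868), SNX24 (0.111), DDX28 (0.115), GEMIN7 (0.118) and PRKCE (0.119), where the median gene was at 0.262. Since the group difference makes up most of the profile of SAT1, this search picks genes whose values were also lower in BPAF. Their differences are therefore a description and add nothing to that of SAT1. In the edgeR fit of all features, DDX28 (edgeR adjusted p = 0.00577) and GEMIN7 (0.0314) passed. ITPKA (0.438), SNX24 (0.113) and PRKCE (0.237) did not. ITPKA was at 2.13, 2.11 and 1.96 CPM in BPAF and 2.24, 2.97 and 2.58 CPM in DMSO, with DMSO replicate 2 highest as for SAT1. DDX28 was at 40.2, 37.5 and 36.2 CPM in BPAF and 44.3, 48.1 and 45.6 CPM in DMSO.

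**Figure D4:**
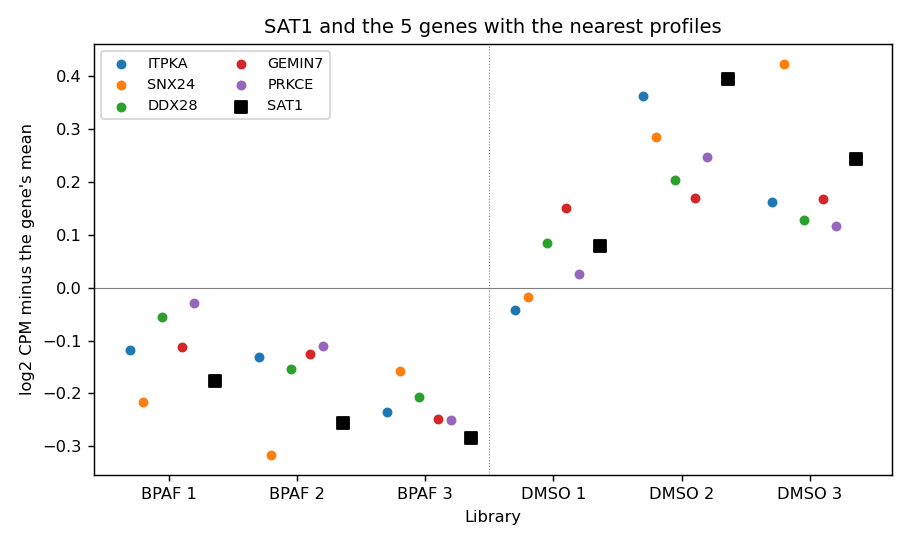
Log2 CPM of SAT1 (black squares) and the 5 genes with the nearest profiles, each minus its own mean over the 6 libraries, for 3 BPAF libraries (left of the dotted line) and 3 DMSO libraries (right). All 6 genes lie below their mean in each BPAF library, and DMSO replicate 1 is the lowest DMSO library for each.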

How the data were processed

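Per the labels' protocols, oligo(dT)-selected RNA was made into stranded paired-end libraries. Per the submitters' processing notes, FastQC, cutadapt, HISAT2, featureCounts and the builds GRCh38 and hg38 were used, without versions. The authors deposited estimated counts per gene, with decimals, and TPM per gene, with no statement of where the decimals or the TPM came from. Of 60856 features, 192 had no gene identifier (0.243% to 0.271% of counts). Estimated counts were rounded to whole numbers. Testing used edgeR 4.0.16 (R 4.3.3) in its robust quasi-likelihood form with filterByExpr, TMM and no covariate. The SE is the log2 fold change divided by the square root of F, and TPM were tested as log2(TPM + 1) with limma 3.58.1. DESeq2 1.42.0 was an alternative. The biological coefficient of variation was 3.77%, and every pair of replicates differed by more than counting error (chi-square over its degrees of freedom 2.38 to 4.08). Intervals cover 95%. Coordinates come from GENCODE release 29 (GRCh38), which may differ from the authors' annotation. The members and gene lists were chosen with earlier results of these data known. Named were all 10 members, related genes past the threshold, the 6 with the smallest p, MYC, EIF5A, PAOX and DHPS, and the 5 profiles nearest to SAT1. The procedure was tested on simulated data that gave every gene the same biological coefficient of variation, and nothing above rests on that run.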

Additional observations from a re-analysis of the deposited data

How the results depend on the processing

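Of 938 features called by edgeR, 411 were higher and 527 lower in BPAF; with upper quartile scaling there were 461 higher and 400 lower calls. A correction for GC content and exon length, chosen after seeing the data as was the restriction to protein-coding genes, left 304 higher and 1035 lower. Leaving out each library in turn gave 322 to 861 calls, the lowest without BPAF replicate 1, then 392 (BPAF replicate 3 left out) and 482 (DMSO replicate 1 left out). Limma on log2(TPM + 1), log2(TPM + 0.1) and log2(TPM + 1) without a filter called 1, 2 and 0 features, with 2699, 2666 and 3100 at an unadjusted p under 0.05. The 2 calls among the polyamine genes became 1 (SAT1) with upper quartile scaling, limma-voom, the replicate block and protein-coding genes only, and 0 in DESeq2 without its own filter and in limma on all TPM scales (2 and 3 unadjusted p under 0.05). Leaving out libraries gave 0 to 1. SAT1 passed in 10 of 19 alternatives and ODC1 in 6, and both kept a negative sign in all 19. SAT1 did not pass on any TPM scale (limma adjusted p from 0.154 to 0.322) or in DESeq2 without its filter (0.0583). ENOPH1, the 1 call of the related list, was lost with upper quartile scaling, both DESeq2 fits, limma-voom, the TPM scales, the replicate block and protein-coding genes only, which gave 0 calls with 3 to 7 unadjusted p under 0.05. The exon length and GC offset gave 2 (MYC and ENOPH1), and leaving out libraries gave 0 to 1. Same-numbered libraries did not deviate together (correlations -0.0010, -0.051 and 0.010). Equal numbers were not said to pair the libraries, and correlations from 3 libraries per group cannot exclude that they were paired. The replicate block gave 826 calls in all.

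Small differences that did not pass changed sign between settings. The median over tested features also differed. It was 0.0019 in edgeR, 0.0775 with log2(TPM + 1), 0.0892 with log2(TPM + 0.1), 0.0128 with upper quartile scaling and -0.0297 with the length and GC offset. With log2(TPM + 1), with or without a filter, and with log2(TPM + 0.1), the values were 0.0523 and 0.0528 for AMD1, 0.0203 and 0.0205 for SMS, 0.0226 and 0.0226 for OAZ1, 0.0367 and 0.0372 for OAZ2, 0.105 and 0.107 for AZIN1, 0.117 and 0.117 for EIF5A, and 0.0811 and 0.0815 for DHPS. Among filtered features, AMD1, SMS, OAZ1 and OAZ2 were below the median on both TPM scales, and AZIN1 and EIF5A were above it. Without the filter the median with log2(TPM + 1) was 0.0448, which lay below AMD1 and above SMS, OAZ1 and OAZ2. AZIN1 and EIF5A were at 0.0032 and 0.0040 with upper quartile scaling, below its median of 0.0128, and at 0.0037 and 0.0045 with protein-coding genes only. SRM and SAT2 were at -0.067 and -0.057 with the length and GC offset. Without single libraries, SRM ranged from -0.0030 to 0.025, SAT2 from -0.032 to 0.052, AZIN1 from -0.029 to 0.0090 and EIF5A from -0.027 to 0.0079. The 3 TPM ratios recomputed without each library kept their direction: the log2 difference between groups was 0.33 to 0.51 for ODC1 to SAT1, -0.096 to -0.066 for OAZ1 to AZIN1 and -0.11 to -0.037 for SMS to SRM. SAT1 to SAT2 was not recomputed. The cause of these dependences was not tested. Counting error alone gives a coefficient of variation of 7.96% for SAT1 and 13.3% for SAT2.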
